A study of Mus musculus with 14 samples.

Results

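The 10 genes described here are Pdgfra, Pi16, Dpt, Serpinf1, Clec3b, Fbln1, Cd34, Ly6a, Cygb and Gpx3, all known from fibroblasts of the vessel's outer coat. They were taken by name from 2 tables of read counts, which list the same 24732 features for aorta and for liver, and all 10 were present in both. The groups were BT3xHuBL aorta with 3 libraries, HuBL aorta with 3, BT3xHuBL liver with 4 and HuBL liver with 4. All mice were at 52 weeks on a normal laboratory diet. The labels give only the strain names. As known from this field, HuBL stands for a human apolipoprotein B transgene on an LDL receptor-deficient background, which all 4 groups share. BT3 adds a transgenic T cell receptor against that human protein. Sex and the number of animals are not stated, and a p-value here reflects variation among libraries, some of which may be technical.

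The adventitia is the outermost layer of an artery, and its fibroblasts make loose connective tissue, hold progenitor-like cells and border on perivascular fat. Fibroblasts marked by Pi16, Dpt, Cd34 and Ly6a (the surface protein Sca-1) are known from the adventitia of many organs, and the PDGF receptor alpha encoded by Pdgfra is a general fibroblast marker. Several of these genes are not restricted to fibroblasts. Cd34 and Ly6a are also made by endothelium, Cygb by hepatic stellate cells and Serpinf1 by hepatocytes.

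Depth ran from 41933263 to 65539765 counts over the aorta libraries and from 13228123 to 17992459 over the liver libraries. The 10 genes took 0.138% to 0.221% of the counts in aorta and 0.0656% to 0.149% in liver. Levels are given as CPM, counts scaled to a fixed total after TMM normalisation, which was done separately in each tissue. The library kit reads each transcript near its 3′ end, so a CPM value reflects the number of transcripts, whatever the length of the gene. Of 10 hepatocyte genes, Ahsg, which encodes the plasma protein fetuin-A, was the only one with enough reads in aorta to be tested there, at 6.09 to 10.8 CPM in BT3xHuBL aortas and 5.06 to 7.48 CPM in HuBL aortas. Alb, the albumin gene, lay between 0 and 0.621 CPM in aorta.

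Promoter sequences are shown for 4 genes because their levels carry the comparisons: Pi16, which had the largest difference between the tissues; Dpt, which followed Pi16 across the aortas; Serpinf1, which was higher in liver; and Gpx3, whose aortic levels did not overlap between the genotypes. Each runs 5′ to 3′ on the gene's strand, from 250 bases before to 50 bases after the RefSeq start in build GRCm38.p6. They lie at chr17:29318632-29318931 (plus strand, Pi16), chr1:164796413-164796712 (plus, Dpt), chr11:75422574-75422873 (minus, Serpinf1) and chr11:54902604-54902903 (plus, Gpx3). Those of Pi16 and Gpx3 lie inside the gene spans given below, which come from another annotation, GENCODE M21. The motifs found or missing thus describe the printed stretches only.
Pi16: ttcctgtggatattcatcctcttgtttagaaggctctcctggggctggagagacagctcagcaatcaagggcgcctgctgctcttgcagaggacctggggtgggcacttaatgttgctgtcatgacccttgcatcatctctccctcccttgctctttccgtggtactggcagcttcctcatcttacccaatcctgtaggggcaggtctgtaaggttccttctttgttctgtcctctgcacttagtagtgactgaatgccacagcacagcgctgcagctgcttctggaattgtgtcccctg
Dpt: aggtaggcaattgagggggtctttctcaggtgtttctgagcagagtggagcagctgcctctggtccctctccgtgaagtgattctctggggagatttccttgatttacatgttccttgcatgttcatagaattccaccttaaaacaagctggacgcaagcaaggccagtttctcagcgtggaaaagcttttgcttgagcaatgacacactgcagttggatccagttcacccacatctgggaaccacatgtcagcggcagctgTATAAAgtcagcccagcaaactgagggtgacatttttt
Serpinf1: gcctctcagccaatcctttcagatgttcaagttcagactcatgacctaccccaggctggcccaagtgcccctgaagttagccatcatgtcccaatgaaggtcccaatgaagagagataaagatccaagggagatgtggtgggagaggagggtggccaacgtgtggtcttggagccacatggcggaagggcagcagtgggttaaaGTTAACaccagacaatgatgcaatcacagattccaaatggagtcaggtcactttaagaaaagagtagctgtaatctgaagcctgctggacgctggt
Gpx3: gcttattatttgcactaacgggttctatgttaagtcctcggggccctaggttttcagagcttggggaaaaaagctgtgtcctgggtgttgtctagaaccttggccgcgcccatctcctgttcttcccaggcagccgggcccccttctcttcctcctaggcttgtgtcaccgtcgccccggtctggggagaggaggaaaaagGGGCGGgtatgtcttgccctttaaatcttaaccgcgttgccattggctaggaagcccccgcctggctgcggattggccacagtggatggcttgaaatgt
Capitals mark matches, on either strand, to 3 motifs that do not overlap here: TATAAA (the TATA box), GTTAAC (a short form of the sequence bound by the hepatocyte factor HNF1) and GGGCGG (the GC box). The Serpinf1 promoter held GTTAAC 46 bases before the start, the Gpx3 promoter GGGCGG 49 bases before it and the Dpt promoter TATAAA 12 bases after it, while the Pi16 promoter held none of the 3. Of 32851 RefSeq promoters of this length, 13.62% held TATAAA, 3.05% GTTAAC and 35.66% GGGCGG. Sequences were found for 7 of the 10 genes. Of the others with a promoter, Fbln1 had an entry beginning at 85205758 that held GGGCGG on both strands around its start. Its other entry, beginning at 85205699, and those of Cd34 and Pdgfra held none of the 3.

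The levels of most of these genes differed between the tissues. In the joint fit of all 14 libraries, 8 of the 10 were higher in aorta than in liver in both genotypes, Serpinf1 was lower in aorta in both, and Ly6a was lower in aorta in HuBL mice. The call rule was an adjusted p under 0.05 from the quasi-likelihood F-test of edgeR, corrected by Benjamini-Hochberg over all features tested. By that rule 83.1% of 14912 features differed between the tissues in BT3xHuBL mice (43.3% higher and 39.8% lower in aorta) and 83.0% in HuBL mice (44.0% higher and 39.0% lower in aorta). Most features thus differed between the tissues, and the counts for the 10 genes are read against those shares. The joint fit scales all libraries together, which places liver 0.76 higher against aorta on the log2 scale than the CPM scaled within each tissue. The ratio of CPM scaled within each tissue thus differs from the fitted fold by that amount. Tissue cannot be told apart from count table, or from any batch that may have differed between the tables. In such bulk samples, more cells of a type and more RNA per cell cannot be told apart either.

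Pi16, a peptidase inhibitor carried on the surface of adventitial fibroblasts (chromosome 17, 29317680 to 29330593, GRCm38), showed the widest difference. It averaged 176 ± 87.9 CPM in BT3xHuBL aortas and 175 ± 16.8 CPM in HuBL aortas (SD, n = 3 each), while liver libraries held only 5, 1, 2 and 5 reads in BT3xHuBL mice and 8, 3, 4 and 4 in HuBL mice. The fitted log2 fold change of aorta over liver was 8.99 (SE 0.43, adjusted p = 8.79e-11 by edgeR) in BT3xHuBL mice and 8.32 (SE 0.41, adjusted p = 1.19e-10) in HuBL mice. Clec3b, which encodes the plasminogen-binding protein tetranectin (chromosome 9, 123150946 to 123157432), followed, with log2 fold changes of 8.02 (SE 0.47) in BT3xHuBL mice and 8.28 (SE 0.49) in HuBL mice. Its liver counts were 10, 0, 2 and 3 in BT3xHuBL mice and 2, 0, 7 and 2 in HuBL mice. The folds of both genes rest on liver counts of 0 to 10 and are correspondingly loose.

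The matrix genes Fbln1 and Dpt came next. Fbln1 encodes fibulin-1, a protein of elastic fibres and basement membranes (chromosome 15, 85205949 to 85286535), and its log2 fold change of aorta over liver was 6.20 (SE 0.34) in BT3xHuBL mice and 6.38 (SE 0.35) in HuBL mice. Dpt encodes dermatopontin, which binds decorin and collagen (chromosome 1, 164796644 to 164824266), with 4.53 (SE 0.45) in BT3xHuBL mice and 5.18 (SE 0.47) in HuBL mice. Among the surface proteins, the progenitor sialomucin Cd34 (chromosome 1, 194938819 to 194961279) stood at 5.75 (SE 0.21) in BT3xHuBL mice and 5.98 (SE 0.21) in HuBL mice, and Pdgfra (chromosome 5, 75152292 to 75198215) at 3.19 (SE 0.24) in BT3xHuBL mice and 3.84 (SE 0.25) in HuBL mice. The genes of oxygen and peroxide handling had the smallest excess in aorta. Cygb, the globin cytoglobin (chromosome 11, 116645595 to 116654313, minus strand, overlapped on the plus strand by Prcd), gave 2.74 (SE 0.28) in BT3xHuBL mice and 3.21 (SE 0.29) in HuBL mice, and Gpx3, the secreted glutathione peroxidase, 2.74 (SE 0.27) in BT3xHuBL mice and 2.93 (SE 0.28) in HuBL mice.

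Serpinf1 and Ly6a did not follow the list's name in liver. Serpinf1 encodes the secreted serpin PEDF (chromosome 11, 75409769 to 75422701, minus strand). On the joint scaling it averaged 81.9 ± 19.4 CPM in BT3xHuBL aortas (SD, n = 3), against 773 ± 52.6 CPM in BT3xHuBL livers (SD, n = 4). In HuBL mice it averaged 86.4 ± 9.47 CPM in aortas (SD, n = 3), against 900.1 ± 79.7 CPM in livers (SD, n = 4). Its log2 fold change of aorta over liver was -3.24 (SE 0.17, adjusted p = 4.42e-11 by edgeR) in BT3xHuBL mice and -3.38 (SE 0.17, adjusted p = 2.77e-11) in HuBL mice. For Ly6a (chromosome 15, 74994877 to 74998031, minus strand) the log2 fold change was 0.043 (SE 0.59, adjusted p = 0.947) in BT3xHuBL mice and -1.56 (SE 0.62, adjusted p = 0.0333) in HuBL mice. On the joint scaling its levels were 247 to 294 CPM in BT3xHuBL aortas and 39.1 to 480.5 CPM in BT3xHuBL livers, and 240.2 to 314 CPM in HuBL aortas and 582 to 987 CPM in HuBL livers. The HuBL call on Ly6a was lost with upper-quartile scaling, with no low-count filter and on leaving out any of 5 HuBL libraries (aorta 1, 2 or 3, liver 2 or 3). These 2 genes made up 92.3% to 98.4% of the summed CPM of the 10 genes in each liver library, against 24.6% to 31.1% in each aorta. The summed level in liver is therefore close to the sum of those 2 genes, and the other 8 together reached 19.6 to 56.6 CPM.

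**Figure D1:**
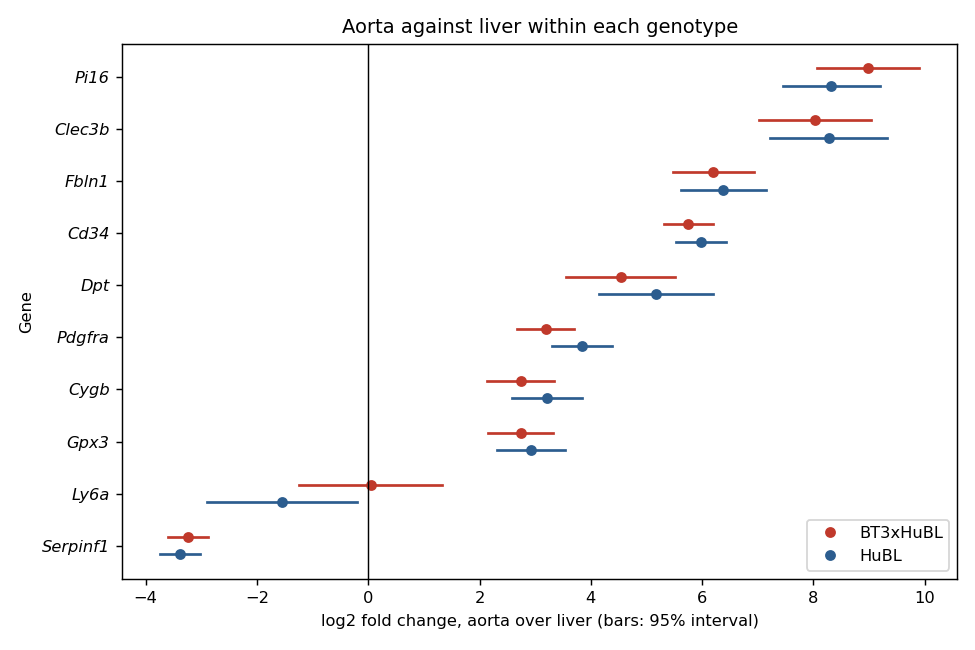
Log2 fold change of aorta over liver for each gene from the joint fit of 14 libraries, BT3xHuBL in red above HuBL in blue, with 95% intervals as bars. The intervals of 8 genes lie right of 0 in both genotypes, those of Serpinf1 lie left of 0, and that of Ly6a spans 0 in BT3xHuBL mice.

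Related lists were set beside these genes. Of 30 other fibroblast genes, 27 were higher and 2 lower in aorta in each genotype by the same rule. The 6 PDGF genes, which encode ligands, a receptor and a receptor-like protein, were all higher in aorta in both genotypes. Of the 10 hepatocyte genes, all 10 were lower in aorta in both genotypes.

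In aorta none of the 10 genes passed the test between the genotypes. The call rule passed 4 of 15400 features in this comparison (0.0260%), and 0 of the 10 genes, whose adjusted p was 1 throughout by edgeR. DESeq2 called 68 features and limma-voom 0, with none of the 10 genes in either. At an unadjusted p under 0.05, 4.08% of all features and 1 of the 10 genes passed. Log2 fold changes of BT3xHuBL over HuBL lay between -0.089 and 0.15 for 9 genes, with wide intervals for the variable ones.

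Among the surface proteins, Pdgfra had 144, 129 and 114 CPM in BT3xHuBL aortas, against 122, 125 and 137 CPM in HuBL aortas, a log2 fold change of 0.0087 (95% interval -0.20 to 0.22). Cd34 had 227, 187 and 192 CPM in BT3xHuBL aortas, against 206, 214 and 212 CPM in HuBL aortas, with -0.060 (-0.26 to 0.14). Both sets overlapped. Ly6a had 397, 334 and 377 CPM in BT3xHuBL aortas, against 326, 430.1 and 332 CPM in HuBL aortas, with 0.025 (-0.24 to 0.29). These 3 genes had the narrower intervals. Pi16 had 271, 97.7 and 160.4 CPM in BT3xHuBL aortas, against 157, 190.0 and 178 CPM in HuBL aortas, and its log2 fold change of 0.014 had an interval of -1.03 to 1.06.

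Of the secreted proteins, Dpt had 346, 222 and 281 CPM in BT3xHuBL aortas, against 268, 319 and 290.3 CPM in HuBL aortas. Fbln1 had 183, 66.2 and 125 CPM in BT3xHuBL aortas, against 98.3, 117 and 122 CPM in HuBL aortas. The BT3xHuBL values of both genes ran above and below all HuBL values. Clec3b had 153, 70.1 and 89.7 CPM in BT3xHuBL aortas, against 111, 93.8 and 91.3 CPM in HuBL aortas. Serpinf1 had 136, 84.1 and 111 CPM in BT3xHuBL aortas, against 108, 133 and 111 CPM in HuBL aortas. Replicate 1 was the highest BT3xHuBL library and replicate 2 the lowest for all 4 genes.

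Cygb had 159, 63.6 and 81.3 CPM in BT3xHuBL aortas, against 79.6, 95.1 and 104 CPM in HuBL aortas, and the groups overlapped. Gpx3 (chromosome 11, 54902453 to 54910377), whose product removes peroxides outside cells, was the exception to the overlap. It had 156, 96.2 and 111 CPM in BT3xHuBL aortas, against 79.3, 95.6 and 69.5 CPM in HuBL aortas. All 3 BT3xHuBL values were above all 3 HuBL values, though the nearest values were 96.2 and 95.6 CPM. The log2 fold change was 0.57 (SE 0.20, 95% interval 0.085 to 1.05), with an unadjusted p of 0.0276 and an adjusted p of 1 by edgeR. The smallest adjusted p among the alternatives run was 0.0937, by DESeq2. Groups did not overlap, with BT3xHuBL higher, for 4.38% of all features tested. Without BT3xHuBL aorta 1 the value fell to 0.35.

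**Figure D2:**
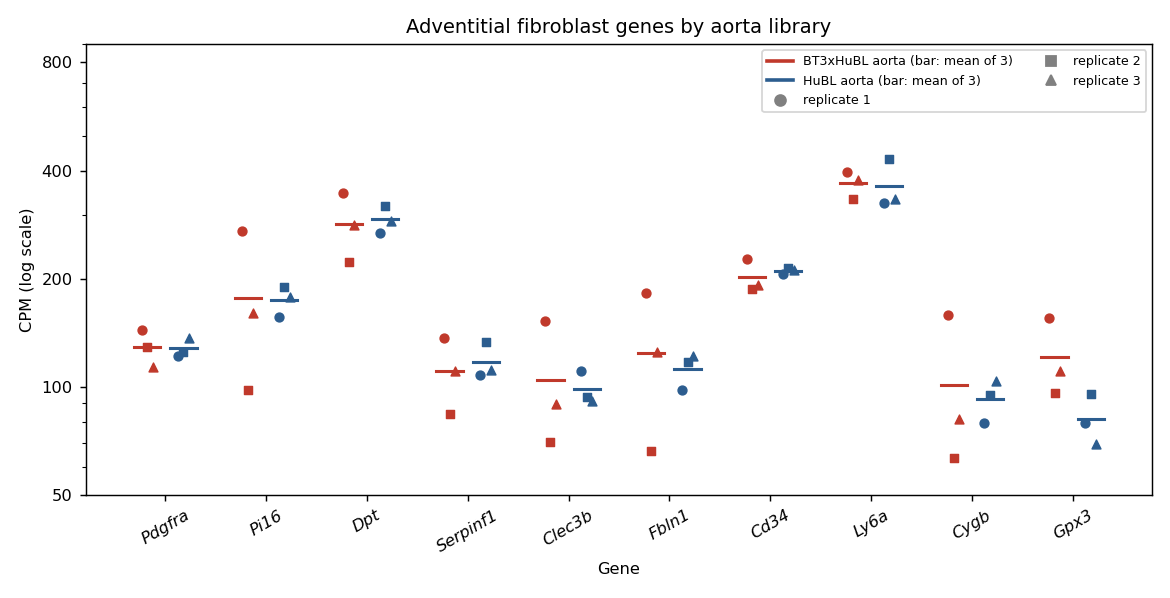
CPM (log axis) of each gene in the 6 aorta libraries, BT3xHuBL in red to the left of HuBL in blue, with markers by replicate and a bar at the mean of 3. BT3xHuBL replicate 1 is the highest library for 9 genes, and Gpx3 alone has groups that do not overlap.

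The spread among the aortas was larger in BT3xHuBL than in HuBL mice for most of the 10 genes. Over the 10 genes the median coefficient of variation was 24.7% in BT3xHuBL aortas and 10.8% in HuBL aortas, against 10.6% in BT3xHuBL and 9.31% in HuBL aortas over all 15400 features tested. Over the 4192 features averaging at least 50 CPM in aorta, as all 10 genes do, it was 6.63% in BT3xHuBL and 5.99% in HuBL aortas. The 10 genes thus varied more than such features in both genotypes. The coefficient was larger in BT3xHuBL aortas for 9 of the 10 genes, and for 56.8% of all features. Cygb had 49.95% in BT3xHuBL aortas and 13.2% in HuBL aortas. For Pi16 it was 49.8% in BT3xHuBL and 9.64% in HuBL aortas, for Fbln1 46.8% in BT3xHuBL and 11.05% in HuBL aortas, and for Clec3b 41.5% in BT3xHuBL and 10.6% in HuBL aortas. The exception was Ly6a, with 8.69% in BT3xHuBL aortas and 16.1% in HuBL aortas. In liver the coefficient was larger in BT3xHuBL mice for 7 of the 10 genes, and for 54.5% of all features. Most of the 10 genes rose and fell together across the aortas, so they are not separate observations of spread. With so few libraries in a group, a difference in spread was given as a description and not tested.

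The extremes fell in particular libraries. BT3xHuBL aorta 1 was the highest of the 6 aortas for 9 of the 10 genes, which holds for 17.04% of all features tested, and Ly6a was highest in HuBL aorta 2. BT3xHuBL aorta 2 was the lowest for 7 of the 10 genes, which holds for 21.5% of all features. The 10 genes summed to 2171, 1349 and 1642 CPM in BT3xHuBL aortas and 1554, 1813 and 1647 CPM in HuBL aortas. The ratio of the highest to the lowest aorta was 2.78 for Pi16, 2.76 for Fbln1 and 2.49 for Cygb. It was 1.22 for Cd34, 1.27 for Pdgfra and 1.32 for Ly6a. The remaining genes lay between, with Dpt at 1.56, Serpinf1 at 1.62, Clec3b at 2.18 and Gpx3 at 2.24.

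Some lists of other cell types were also extreme in BT3xHuBL aortas 1 and 2, and others in different libraries. The mesothelial list, genes of the sheet that lines body cavities, lay 2.06 above its mean over the 6 aortas in BT3xHuBL aorta 1 on the log2 scale, and between -1.08 and 0.33 in the other 5. Msln, a surface protein of mesothelium, had 7.93, 1.41 and 0.260 CPM in BT3xHuBL aortas, against 0.978, 1.08 and 1.14 CPM in HuBL aortas, and Upk3b 6.57, 2.01 and 0.195 CPM in BT3xHuBL aortas, against 1.18, 0.562 and 0.459 CPM in HuBL aortas. Of 10 mesothelial genes, 9 were measured, and none was at 0 in any aorta. The summed level was 13.4 to 40.6 CPM in BT3xHuBL aortas and 15.7 to 19.5 CPM in HuBL aortas. Krt18, the most abundant of them, ran from 10.85 to 13.26 CPM in BT3xHuBL aortas, against 10.96 to 14.45 CPM in HuBL aortas. Gpm6a ran from 1.41 to 6.93 CPM in BT3xHuBL aortas, against 2.31 to 2.53 CPM in HuBL aortas. Of the 7 mesothelial genes tested, 6 were highest in BT3xHuBL aorta 1 and 1 in HuBL aorta 2. The adipocyte list of 12 genes, none at 0, summed to 1289 to 1727 CPM in BT3xHuBL aortas and 905 to 1364 CPM in HuBL aortas. It was 0.62 above its mean in BT3xHuBL aorta 1, where 11 of its 12 genes were highest. Its deviation was -0.68 in HuBL aorta 3, where 9 of the 12 were lowest, while the 10 fibroblast genes were at -0.024 there. The brown adipocyte list of 8 genes, none at 0, summed to 42.9 to 244 CPM in BT3xHuBL aortas and 125 to 177 CPM in HuBL aortas. Its deviation was -0.14 in BT3xHuBL aorta 1, -1.86 in BT3xHuBL aorta 2, where 6 of the 8 were lowest, and 1.03 in BT3xHuBL aorta 3, where 6 of the 8 were highest. None of the genes in these lists passed the call rule between the genotypes in aorta. The median log2 fold change was 1.62 for the 7 mesothelial genes tested, 6 of them above 0. It was 0.34 for the adipocyte genes, all 12 above 0, and -0.23 for the brown adipocyte genes, with 2 of 8 above 0. Over all features the median was -0.0044. The part of mesothelium or fat in the members' levels was not tested.

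Abundant fibroblast matrix genes did not all follow BT3xHuBL aorta 1. Dcn, the collagen-binding proteoglycan decorin, had 2956, 3064 and 2468 CPM in BT3xHuBL aortas, against 2744, 3206 and 2562 CPM in HuBL aortas. Lum, the related lumican, had 2958, 3353 and 3250 CPM in BT3xHuBL aortas, against 3243, 4002 and 3037 CPM in HuBL aortas, with its lowest value in BT3xHuBL aorta 1. Over the 30 other fibroblast genes, BT3xHuBL aorta 1 was highest for 15 and BT3xHuBL aorta 2 lowest for 16. None of the 30 passed the call rule between the genotypes in aorta, and their median log2 fold change was 0.031, beside -0.0044 over all features. Of the 6 PDGF genes none passed (median -0.059), and of 12 fibroblast activation genes, which rise in myofibroblasts and scar, none passed (median -0.14, 11 of 12 below 0).

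**Figure D3:**
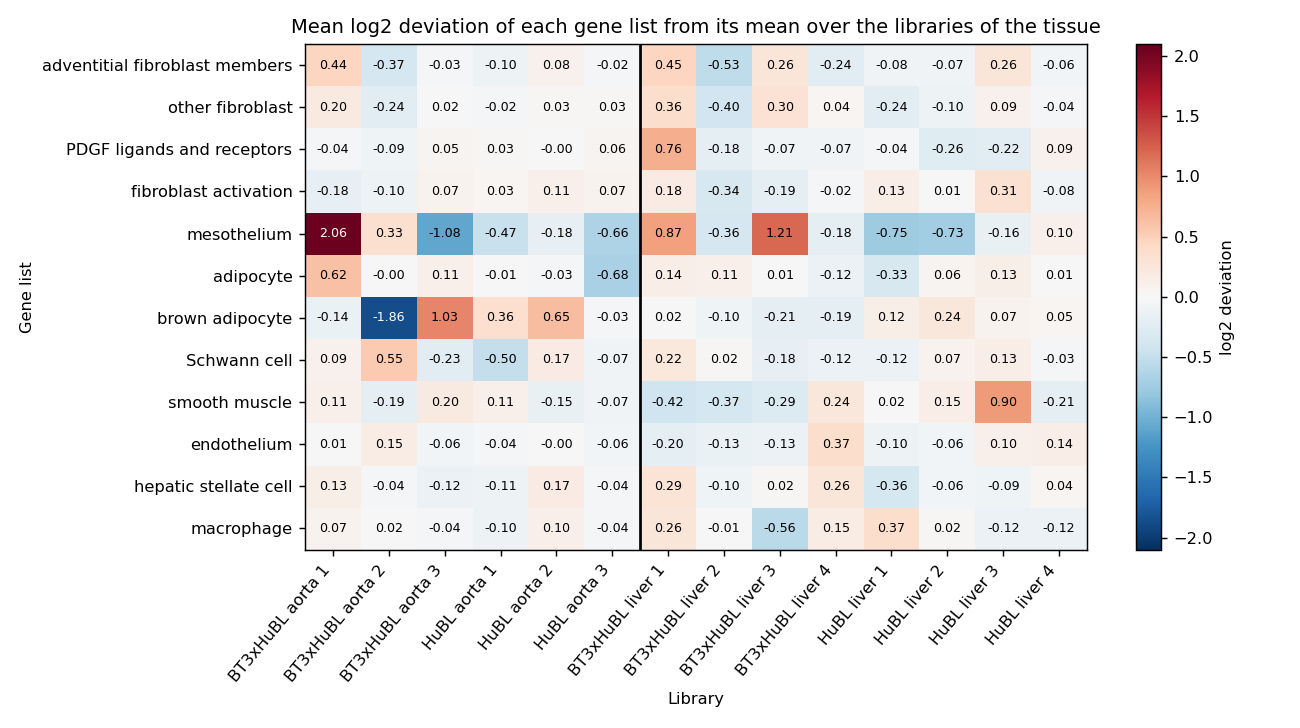
Mean log2 deviation of each gene list (rows) from its mean over the libraries of the same tissue, for the 6 aorta and 8 liver libraries (columns), red above and blue below. The adventitial fibroblast genes read 0.44 in BT3xHuBL aorta 1, where the mesothelial list reads 2.06 and the adipocyte list 0.62.

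Across the 6 aortas most of the genes rose and fell together. Pearson correlations of log2 CPM were above 0 for all 45 pairs, with a median of 0.71 and a range of 0.015 to 0.99. Libraries of both genotypes, sharing table and scaling, are the points, and the values are a description. Pairs of other features were not correlated for comparison. Pi16 was the closest partner of Clec3b (0.88), Fbln1 (0.97), Cd34 (0.91) and Cygb (0.95). Dpt and Serpinf1 were each other's closest (0.99), and Dpt was the closest to Pi16 (0.98). Closest partners were weaker for Ly6a (Serpinf1, 0.76), Pdgfra (Cygb, 0.69) and Gpx3 (Ly6a, 0.61). The lowest correlation was that of Pdgfra with Ly6a (0.015). Outside the list, the 5 of 9472 features whose aortic pattern was most like the mean of the 10 standardized genes were Preb (0.99), Srpx (0.98), Haus5 (0.98), C7 (0.98) and Man2c1 (0.97). The tables' names for Preb and Man2c1, and for Pdgfra and Cd34 among the 10, end in a suffix that neither the labels nor the tables explain.

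In liver, 8 of the 10 genes had enough reads for a genotype test, all but Pi16 and Clec3b. The call rule passed 0 of 12453 features (0.00%) with edgeR and 0 of the 8 genes, although 1381 features (11.1%) and 4 of the 8 genes had an unadjusted p under 0.05. DESeq2 called 133 features in the same comparison and limma-voom 0, and neither called any of the 8.

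Ly6a encodes a GPI-anchored surface protein of the Ly6 family that interferon is known to induce. It had 105, 384, 329 and 30.9 CPM in BT3xHuBL livers, against 460.1, 787, 645 and 615 CPM in HuBL livers. All 4 BT3xHuBL values lay below all 4 HuBL values, and BT3xHuBL livers 1 and 4 lay far below livers 2 and 3. The log2 fold change was -1.56 (SE 0.73, 95% interval -3.30 to 0.18), with an unadjusted p of 0.0713 and an adjusted p of 0.474 by edgeR. Groups did not overlap, with BT3xHuBL lower, for 3.58% of all features tested in liver. Leaving out each library in turn gave values from -2.02 to -1.20. In aorta its levels overlapped, and the test of the difference between the tissues' genotype effects gave 1.60 (SE 0.84, adjusted p = 0.669).

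Ly6a sits in a cluster of Ly6 genes on chromosome 15, and similar copies can share reads, which was not tested. A list of 14 genes around it and a list of 12 interferon-induced genes were chosen after values had been seen and support nothing by themselves. Of the 14, 13 were measured and 6 tested in liver, and none passed. Their log2 fold changes ran from -1.56 to 0.65, with 2 above 0, 4 below and a median of -0.20. An unadjusted p under 0.05 by edgeR came with 2 genes, Ly6e and Ly6c1, and with 11.1% of all features tested in liver. Gpihbp1, which carries lipoprotein lipase in capillaries, had 7.35, 7.14, 6.84 and 10.5 CPM in BT3xHuBL livers, against 7.26, 6.64, 4.44 and 7.48 CPM in HuBL livers. Ly6d, a marker of early B cells, had 9.96, 3.97, 2.06 and 6.01 CPM in BT3xHuBL livers, against 3.22, 5.56, 5.64 and 7.82 CPM in HuBL livers. The groups overlapped for both. Ly6e, 35.0 kb away, had 1075, 1343, 989 and 992 CPM in BT3xHuBL livers, against 1312, 1567, 1526 and 1331 CPM in HuBL livers. Ly6c1, 46.0 kb away and below 2.5 CPM in every liver library, had 0.304, 0.992, 0.452 and 0.714 CPM in BT3xHuBL livers, against 1.58, 2.47, 2.18 and 1.13 CPM in HuBL livers. The groups overlapped for Ly6e and not for Ly6c1, and adjusted p was 0.334 for Ly6e and 0.281 for Ly6c1 by edgeR. The 12 interferon-induced genes summed to 1983, 2638, 1534 and 1330.3 CPM in BT3xHuBL livers, against 2656, 3701, 3816 and 2835 CPM in HuBL livers. None of the 12 passed the call rule, and all 12 log2 fold changes were below 0, with a median of -0.71 beside 0.0092 over all features. The part of interferon response in the level of Ly6a was not tested.

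**Figure D4:**
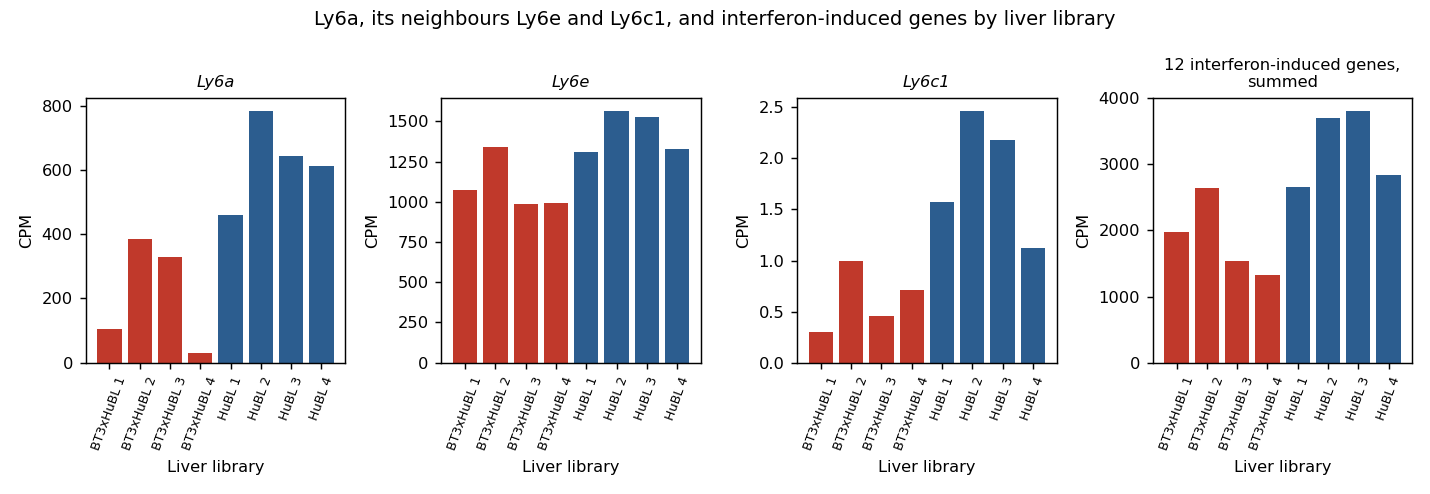
CPM of Ly6a, its neighbours Ly6e and Ly6c1, and the sum of 12 interferon-induced genes in each liver library, BT3xHuBL in red to the left of HuBL in blue. BT3xHuBL livers 1 and 4 have the lowest Ly6a bars, 105 and 30.9 CPM, and all HuBL Ly6a bars are at 460.1 CPM or above.

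Serpinf1 had 574, 597, 654 and 639 CPM in BT3xHuBL livers, against 801, 711, 665 and 692 CPM in HuBL livers. The groups did not overlap, as held with BT3xHuBL lower for 3.58% of all features tested, and the highest BT3xHuBL and the lowest HuBL library differed by little. The log2 fold change was -0.22 (SE 0.10), with an unadjusted p of 0.0487 and an adjusted p of 0.449 by edgeR.

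Gpx3, Cygb and Pdgfra ran the other way. Gpx3 had 13.5, 5.02, 15.2 and 8.98 CPM in BT3xHuBL livers, against 6.56, 7.10, 5.64 and 5.80 CPM in HuBL livers, a log2 fold change of 0.77 (SE 0.30, adjusted p = 0.403 by edgeR). Cygb had 11.8, 5.75, 8.19 and 9.996 CPM in BT3xHuBL livers, against 6.25, 5.56, 5.64 and 5.96 CPM in HuBL livers, with 0.61 (SE 0.20, adjusted p = 0.334 by edgeR). BT3xHuBL liver 2 lay below all HuBL livers for Gpx3 and within their range for Cygb, and the other 3 lay above it for both. Pdgfra had 12.1, 4.76, 10.3 and 6.25 CPM in BT3xHuBL livers, against 4.86, 5.02, 3.99 and 6.92 CPM in HuBL livers, with 0.67 (SE 0.29, adjusted p = 0.432 by edgeR). Dpt had 14.1, 2.18, 8.64 and 3.99 CPM in BT3xHuBL livers, against 3.91, 3.70, 7.53 and 3.99 CPM in HuBL livers, and its log2 fold change was 0.60 (SE 0.54). Livers 1 and 3 of the BT3xHuBL group were the highest 2 of the 8 livers for Gpx3, Pdgfra and Dpt. Fbln1, at 0.442 to 1.20 CPM over the 8 livers, had an adjusted p of 0.735 by edgeR, and Cd34, at 0.992 to 3.16 CPM, one of 0.875.

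**Figure D5:**
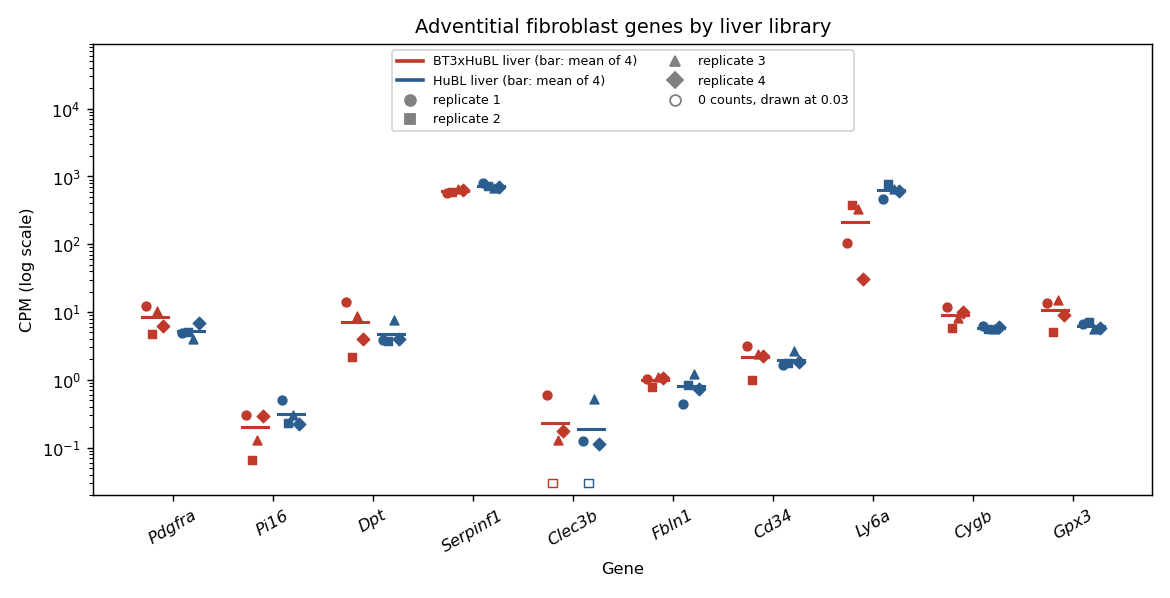
CPM (log axis) of each gene in the 8 liver libraries, BT3xHuBL in red to the left of HuBL in blue, with markers by replicate, a bar at the mean of 4 and open squares for 0 counts. Serpinf1 and Ly6a lie above the other 8 genes in every library, and Ly6a has the lowest 2 values in BT3xHuBL livers 1 and 4.

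BT3xHuBL livers 1 and 3 were also the livers highest in mesothelial genes. Their list deviations were 0.87 and 1.21 on the log2 scale, against -0.75 to 0.10 in the other 6 livers. Msln had 2.00, 0.595, 3.42 and 0.892 CPM in BT3xHuBL livers, against 0.315, 0.231, 1.28 and 1.01 CPM in HuBL livers. Of the 9 measured mesothelial genes none was at 0 in a BT3xHuBL liver and at most 2 in a HuBL liver, with sums of 417 to 580.4 CPM in BT3xHuBL livers and 406 to 479 CPM in HuBL livers that keratins shared with hepatocytes dominated. A fit with BT3xHuBL livers 1 and 3 left out together was an alternative chosen after seeing the data. Its log2 fold change was 0.076 (SE 0.25) for Pdgfra, 0.16 (SE 0.24) for Gpx3, 0.43 (SE 0.23) for Cygb and -0.62 (SE 0.37) for Dpt. The livers left out had the highest values of Pdgfra, Gpx3 and Dpt, so lower folds for these genes followed from the choice. Ly6a was at -1.60 (SE 1.02) in that fit. The part of mesothelium in these levels was not tested.

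Stellate cells are the liver's own fibroblast-like cells. Of 12 genes of that list none passed the call rule between the genotypes in liver, and 9 had a log2 fold change above 0, with a median of 0.20 beside 0.0092 over all features. Hgf, the hepatocyte growth factor, had 0.83 (SE 0.26, adjusted p = 0.321 by edgeR), and Reln, a stellate marker, had 38.0, 23.1, 36.2 and 29.6 CPM in BT3xHuBL livers, against 20.2, 18.3, 19.6 and 25.9 CPM in HuBL livers. Of 30 other fibroblast genes, 23 were tested in liver and none passed, with 16 above 0, 7 below and a median log2 fold change of 0.21 beside 0.0092 over all features. An unadjusted p under 0.05 by edgeR came with 3 of the 23, Lum at 1.04, Lsp1 at -0.48 and Thy1 at -0.53. It came with 11.1% of all features tested in liver. The groups did not overlap for Lsp1, Thy1 and Pcolce2 (-0.46), all lower in BT3xHuBL livers, as held for 3.58% of all features tested. Dcn, the most abundant of the list in liver, had 204, 156, 188 and 172 CPM in BT3xHuBL livers, against 173, 152, 146 and 173 CPM in HuBL livers. Lum had 16.2, 3.17, 12.6 and 8.57 CPM in BT3xHuBL livers, against 4.10, 4.55, 5.19 and 5.85 CPM in HuBL livers, again highest in livers 1 and 3 of the BT3xHuBL group. Of the 6 PDGF genes, 4 were tested in liver, none passed, and Pdgfrb had 18.8, 6.74, 16.9 and 9.52 CPM in BT3xHuBL livers, against 7.32, 8.95, 8.35 and 10.8 CPM in HuBL livers.

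The effect of genotype was also compared between the tissues, and none of the 10 genes passed that test. The interaction test passed 0 of 14912 features (0.00%), against 1217 features at an unadjusted p under 0.05 (8.16%), none of them among the 10 genes. DESeq2 called 44 features and limma-voom 0, again with none of the 10. The smallest unadjusted p was 0.0778 for Pdgfra, with a log2 interaction of -0.65 (SE 0.34, adjusted p = 0.668 by edgeR). The interval for Ly6a ran from -0.23 to 3.43.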

How the data were processed

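Per the labels' protocols, RNA from aorta and liver came from a Qiagen RNeasy extraction, and libraries from the 3′ kit Lexogen QuantSeq V2. The values deposited are raw counts per feature. Per the submitters' processing notes, HTSeq 2.0 and GRCm38 were used; the sources used here name no aligner, annotation or strand setting, so reads of overlapping genes on opposite strands may not be separable (5 of the 10 genes have an annotated overlapping gene). Groups and replicate numbers come from the sample titles. The tables' starts did not match GENCODE M21 (0 of 10 genes within 1 kb), so positions printed come from GENCODE M21 by symbol, and promoters from RefSeq GRCm38.p6. Libraries of a group differed by more than sampling noise (chi-square over degrees of freedom 12.2 to 75.7).

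Counts were fitted with edgeR 4.0.16, under R 4.3.3 (robust quasi-likelihood F-test after filterByExpr and TMM, two-sided, Benjamini-Hochberg over all features, threshold 0.05). Each tissue was fitted alone for genotype, and all 14 libraries jointly for tissue and interaction. CPM use TMM-scaled library sizes of each tissue alone unless the joint scaling is named; list deviations are means of log2 CPM with a prior count of 2. The fit was also run on simulated data with 200 changed genes. That simulation held no shifts shared by genes within a library, and no result here rests on it. Plots used matplotlib 3.10.9. Alternatives were RLE and upper-quartile scaling, other filters, DESeq2 1.42.0, limma-voom (limma 3.58.1), no robust weights, a replicate block, both tissues in 1 fit and each library left out.

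The 10 genes and all lists were chosen with earlier results of these data known. Named besides them are up to 3 genes of each list with the highest mean CPM in the tissue, any list gene past the threshold, and the 5 features most like the mean pattern; Upk3b, Hgf, Ly6c1, Lsp1, Thy1, Pcolce2, and Msln and Lum in liver, were named after values were seen.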

Additional observations from a re-analysis of the deposited data

Results flagged for a closer look

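Dpt in HuBL liver 3 stood apart from the rest of its group at 7.526 CPM, against 3.70 to 3.99 CPM in the other 3 HuBL livers. It was the 1 set flagged of 22 examined, each set being a gene or the genes' sum in a liver group of 4 libraries. Chance flags about 1 in 20, and the sums are not independent of the genes. Aorta groups, with 3 libraries each, were not examined. The 4 BT3xHuBL livers, at 2.18 to 14.1 CPM, spanned this value.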

How the results depend on the processing

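None of the 10 genes passed between the genotypes, in either tissue or in the interaction, under any alternative run. In aorta, where 4 features passed, DESeq2 called 68 (30 higher, 38 lower), limma-voom 0, a fit with no low-count filter 9 and the replicate block 14 (5 higher, 9 lower); leaving out each library gave 0 to 27, the highest without BT3xHuBL aorta 3. In liver, where 0 passed, DESeq2 called 133 (35 higher, 98 lower), the replicate block 10, the fit of both tissues 5, the fit without BT3xHuBL livers 1 and 3, chosen after seeing the data, 4, and leaving out each library 0 to 5. In the interaction, where 0 passed, DESeq2 called 44, the replicate block 0 and leaving out each library 0 to 3. After centring each feature on its group mean, same-numbered libraries correlated at -0.058 to 0.14 in aorta and -0.042 to 0.16 in liver. Not every library correlated best with its own number. With 3 such pairs in aorta and 4 in liver, these values cannot decide whether the numbers pair libraries. Between the tissues the count of the 10 genes called was 9 in BT3xHuBL mice under every alternative, and 9 or 10 in HuBL mice, where only Ly6a was lost (-1.37 with upper-quartile scaling, -1.52 with no low-count filter, -1.69 to -1.43 on leaving out each library). Upper-quartile scaling moved the median of all features to 0.25 in BT3xHuBL and 0.29 in HuBL mice, against 0.071 and 0.10 with TMM.

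Directions of small effects in aorta turned. Pi16 was -0.10 with limma-voom and with the replicate block, against 0.014. On leaving out each library the log2 fold changes ran from -0.075 to 0.091 for Pdgfra, -0.43 to 0.31 for Pi16, -0.21 to 0.11 for Dpt, -0.27 to 0.079 for Serpinf1, -0.30 to 0.30 for Clec3b, -0.23 to 0.46 for Fbln1, -0.047 to 0.17 for Ly6a and -0.35 to 0.38 for Cygb; the lowest came without BT3xHuBL aorta 1 for all but Ly6a, and the cause was not tested. In liver Cd34 ran from -0.062 to 0.40, and without BT3xHuBL livers 1 and 3 it was -0.26 and Dpt -0.62. Ly6a between the tissues in BT3xHuBL mice ran from -0.32 to 0.49. Interactions ran from -0.036 to 0.31 for Serpinf1, -1.33 to 0.88 for Clec3b, -0.56 to 0.12 for Fbln1 and -0.42 to 0.031 for Gpx3. Liver counts limit Pi16 and Clec3b.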
